A study of Mus musculus with 10 samples.

Results

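Mouse myotubes treated with the gapmer set GAP-2/3 were compared with myotubes treated with the control gapmer GAP-scr, on all genes measured. The members are the 2 GAP-2/3 and the 2 GAP-scr RNA-seq libraries, 4 of the 10 samples of the series, chosen by their labels. Of the 11228 genes in the deposited table, 10993 had a mean of at least 1 FPKM (fragments normalised for transcript length and library size) over the 6 RNA-seq libraries and were tested. All 3 RNA groups, GAP-scr, GAP-2 and GAP-2/3, were of a genotype the labels do not give, were differentiated in vitro for 2 days and were given a gapmer, so the control cells had been treated with an oligonucleotide too. The labels call GAP-2 and GAP-2/3 separate gapmer sets against Charme, a muscle-specific long noncoding RNA, and give neither their sequences nor their doses. Charme is not analysed here, so the extent of its silencing is unknown here and group membership is that of the labels alone.

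Gapmers are short antisense oligonucleotides with a DNA core and chemically modified ends. The core pairs with an RNA inside the cell and RNase H cuts that RNA strand. Myotubes form when myoblasts leave the cell cycle, fuse and switch on the genes of the sarcomere, the repeating actin and myosin unit of muscle, and of the triad, where an electrical signal is turned into calcium release. Several transcription programmes described here are textbook stress and signalling responses: ATF4 raises amino acid supply genes when translation initiation is limited, HIF-1 raises glycolytic and vascular genes when oxygen is low, NRF2 raises detoxification genes upon oxidative stress, and interferon factors raise antiviral genes when nucleic acids are sensed.

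The libraries carried myotube markers. Myog stood at 982 and 846 FPKM with GAP-scr and 811 and 882 FPKM with GAP-2/3. Myh3 stood at 918 and 944 FPKM with GAP-scr and 729.9 and 802 FPKM with GAP-2/3. Neither passed the test (limma adjusted p = 0.498 and 0.0769), and both were picked after their values were seen. Other myotube markers, Acta1, Chrng, Tmem8c and Ryr1, passed and were lower with GAP-2/3, as given below. Mean Ckm differed by -266 FPKM between GAP-2/3 and GAP-scr. None of the 10 endothelial markers and 2 of the 13 macrophage markers were among the tested genes. Median FPKM ran from 12.3 to 13.8 over the 6 libraries, and replicates correlated across genes, which are not independent, at 0.9885 or more. The ribosomal RNA precursor Rn45s reached 3387 FPKM in GAP-scr replicate A and 4090.0 FPKM in GAP-2 replicate A, against 93.2 to 176 FPKM in the other libraries. Its part in the results below was not tested beyond a refit without both of these libraries. The series text calls the libraries biological replicates without saying whether cultures were separate, so the p-values reflect only how much these libraries scatter, and that scatter may be technical. FPKM keeps no sequencing depth, which is unknown here.

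With GAP-2/3, 3081 of 10993 genes were higher than with GAP-scr (28.0%) and 1242 were lower (11.3%) at a limma adjusted p under 0.05, with n = 2 libraries a group. More than 2-fold changes on the log2(FPKM + 1) scale were called for 243 genes upward and 53 downward. All fold values below are differences in log2(FPKM + 1), which understate the change of weakly expressed genes. The median over all genes tested was 0.13, so list medians are also given relative to it. Scaling the libraries to a common median or by quantiles brought that median to 0.02 and 0.01 and gave 1888 higher and 1817 lower genes, or 1820.0 higher and 1960.0 lower. Without GAP-2/3 replicate A the counts were 1136 higher and 402 lower. Counts in the lists below fell in most cases when that library was left out, and where they moved by over 1.5 times the value is given. Members called in each list are to be read against the 28.0% and 11.3% over all genes.

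**Figure D1:**
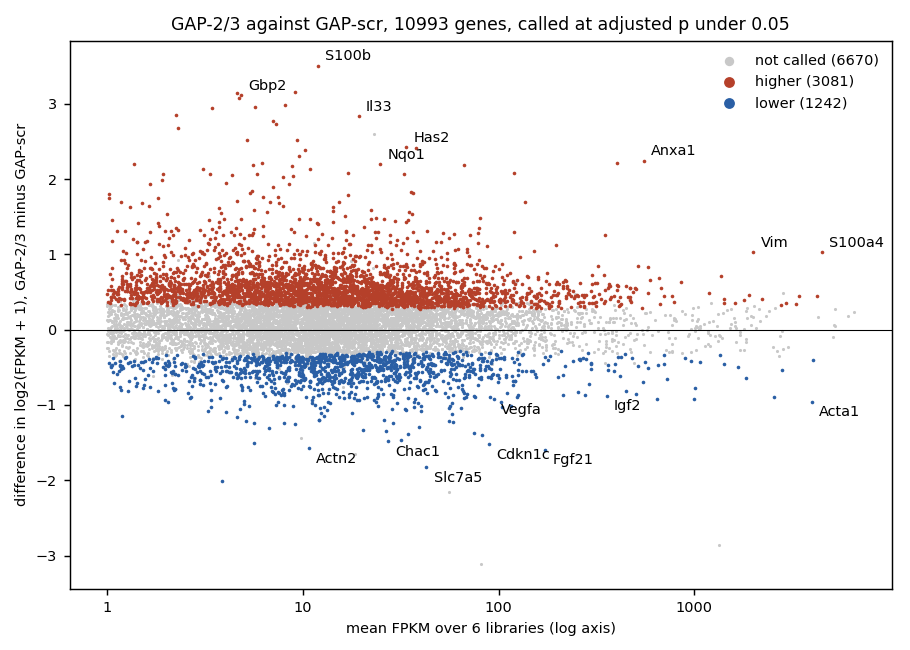
Each point is a gene, with its mean FPKM over the 6 libraries on a log x axis and the GAP-2/3 minus GAP-scr difference in log2(FPKM + 1) on the y axis. Of the called genes, 3081 are higher and 1242 lower. S100b (3.51) and Gbp2 (3.12) lie at the top and Slc7a5 (-1.83) and Fgf21 (-1.59) at the bottom.

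Genes of the contractile apparatus were lower with GAP-2/3. Of 16 tested members of the thin filament list, the actin-based strand of the sarcomere, 0 were higher and 8 lower. Of 18 in the thick filament and M-band list, the myosin strand and its anchor, 0 were higher and 12 lower, and of 21 in the Z-disc and costamere list, which holds thin filaments in register and ties them to the membrane, 2 were higher and 11 lower. List medians were -0.32, -0.54 and -0.32, which is -0.45, -0.67 and -0.45 relative to all genes. The lower counts were 4, 7 and 7 without GAP-2/3 replicate A, and 5 for the thin filament without GAP-2/3 replicate B. Without the Rn45s-rich libraries they were 9, 11 and 10. With GAP-2 against the same GAP-scr libraries, 0 were higher in each of the 3 lists and 12, 12 and 11 lower. Their medians with GAP-2 were -0.50, -0.54 and -0.58. Over all genes, 10.4% were higher and 4.18% lower with GAP-2. In bulk RNA, fewer differentiated cells and less RNA per cell cannot be told apart.

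Actn2, alpha-actinin 2 of the Z-disc, was at 20.1 and 15.6 FPKM with GAP-scr and 5.10 and 5.44 FPKM with GAP-2/3. The control libraries lay above the GAP-2/3 libraries without overlap (log2 difference -1.58, SE 0.14, limma adjusted p = 1.4e-05). Acta1, skeletal alpha-actin and the gene with the largest fall in mean FPKM, went from 5636 and 6323 FPKM to 2928 and 3215 FPKM (log2 difference -0.96, SE 0.12, limma adjusted p = 0.000199). The nebulin gene Neb, the beta-tropomyosin gene Tpm2 and the M-band gene Myom2 fell with log2 differences of -1.06, -0.65 and -0.63 (limma adjusted p = 0.000812, 0.00185 and 0.00168). Ankrd2, a stretch-responsive Z-disc and nuclear protein, was at 176 and 93.1 FPKM with GAP-scr and 50.9 and 45.6 FPKM with GAP-2/3 (log2 difference -1.39, SE 0.22, limma adjusted p = 0.000907). Fhl1, a LIM protein of the sarcomere and costamere, went the other way, from 43.3 and 57.3 FPKM to 106 and 100.3 FPKM (log2 difference 1.04, SE 0.13, limma adjusted p = 0.000251). In the GAP-2 libraries Fhl1 was at 50.7 and 56.3 FPKM, close to the control libraries.

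Calcium handling genes moved in the same direction. With GAP-2 against GAP-scr, 1 of the 21 tested triad and calcium handling genes was higher and 8 were lower. The counts with GAP-2/3 follow. In the triad and calcium handling list, 0 higher and 14 lower of 21 tested were called, with a median of -0.48; 6 stayed lower without GAP-2/3 replicate A, 8 without replicate B. Ryr1, the calcium release channel, was at 42.7 and 36.5 FPKM with GAP-scr and 15.4 and 18.1 FPKM with GAP-2/3 (log2 difference -1.19, SE 0.13, limma adjusted p = 6.35e-05). Its voltage sensor gene Cacna1s was at 30.1 and 29.8 FPKM with GAP-scr and 14.1 and 16.9 FPKM with GAP-2/3 (log2 difference -0.91, SE 0.12, limma adjusted p = 0.000253). Atp2a1, the pump that returns calcium to the reticulum, was at 324 and 280.3 FPKM with GAP-scr and 149.8 and 179.7 FPKM with GAP-2/3 (log2 difference -0.87, SE 0.12, limma adjusted p = 0.000428). Both groups were apart in all 3 genes, and the junctophilin genes Jph1 and Jph2, whose products hold the triad membranes together, fell with log2 differences of -0.69 and -0.66 (limma adjusted p = 0.00165 and 0.00124). Pvalb, a calcium buffer, was among the 15 lowest log2 differences (-1.47, limma adjusted p = 0.0414), but without GAP-scr replicate A it was -0.38 with an adjusted p of 0.333.

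**Figure D2:**
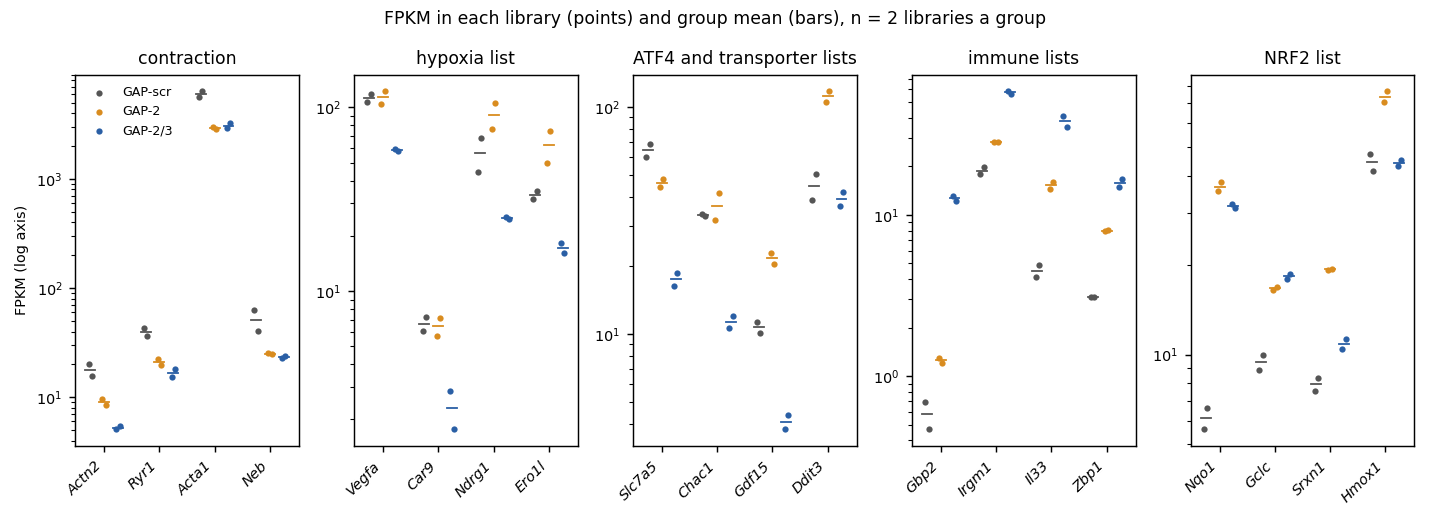
FPKM of 20 genes on log axes, 1 panel for each group of lists; points are libraries and bars are means of 2 libraries (grey GAP-scr, orange GAP-2, blue GAP-2/3). Actn2, Vegfa and Slc7a5 are lowest with GAP-2/3, Gbp2 and Il33 are highest with it, and Ddit3 and Hmox1 are highest with GAP-2.

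Genes of fusion and of the nerve-muscle synapse were lower as well. The myoblast fusion and adhesion list had 2 higher and 11 lower of 20 (7 lower without GAP-2/3 replicate A), and the neuromuscular junction list 0 higher and 5 lower of 11 (3 lower without any 1 of the GAP-2 or GAP-2/3 libraries). Tmem8c, the fusion protein myomaker, was at 659.6 and 734 FPKM with GAP-scr and 363 and 408 FPKM with GAP-2/3 (log2 difference -0.85, SE 0.11, limma adjusted p = 0.000268). Dysf, dysferlin of membrane repair, was at 22.6 and 22.1 FPKM with GAP-scr and 10.97 and 11.98 FPKM with GAP-2/3 (log2 difference -0.91, SE 0.11, limma adjusted p = 0.000199). Chrng, which encodes the gamma chain of the fetal acetylcholine receptor, was at 393 and 401 FPKM with GAP-scr and 214 and 219 FPKM with GAP-2/3 (log2 difference -0.87, SE 0.10, limma adjusted p = 0.000112). The GAP-2/3 values of these 3 genes lay below both control values. In the dystrophin complex list, which links cytoskeleton and matrix, 2 higher and 4 lower of 17 were called, among them Dag1 (-0.84, limma adjusted p = 0.000726). With GAP-2 against GAP-scr, the fusion and adhesion list had 0 higher and 8 lower. The neuromuscular junction list had 0 and 6 there, and the dystrophin complex list 0 and 2.

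Of 14 tested myogenic transcription factors, 2 were higher and 4 lower. Myf5, a determination factor of undifferentiated myoblasts, rose from 14.8 and 11.6 FPKM to 31.6 and 27.98 FPKM (log2 difference 1.13, SE 0.13, limma adjusted p = 0.000129). Myod1, which starts differentiation, fell from 128 and 152 FPKM to 92.4 and 90.97 FPKM (log2 difference -0.60, SE 0.12, limma adjusted p = 0.0029). Tead4, a partner of YAP that muscle cells induce, fell by 0.73 and Tcf12, a partner of MyoD, rose by 0.47 (limma adjusted p = 0.000653 and 0.00522).

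The muscle splicing regulators list was split, with 4 higher and 6 lower of 14 (3 lower without GAP-2/3 replicate A). Ptbp2, a repressor of exon use best known from neurons, was at 8.53 and 7.95 FPKM with GAP-scr, 10.8 and 12.4 FPKM with GAP-2 and 31.9 and 29.99 FPKM with GAP-2/3. GAP-2/3 libraries were above both other groups without overlap (log2 difference 1.79, SE 0.12, limma adjusted p = 1.63e-06), and the direct difference to GAP-2 was 1.35 (limma adjusted p = 4.33e-05). Mbnl1, which promotes adult splice forms, rose by 1.07, whereas Rbm38, Rbfox1 and Rbm24, regulators of muscle exons, fell with log2 differences of -0.94, -0.76 and -0.60 (limma adjusted p = 6.32e-05, 0.000565, 0.00148 and 0.00294).

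HIF-1 target genes were lower with GAP-2/3 than in either other group. Of 20 tested members of the hypoxia response list, 0 were higher and 15 lower than with GAP-scr, with a median of -0.55. Against GAP-2, 0 were higher and 14 lower (6.5% and 3.65% over all genes), and with GAP-2 against GAP-scr, 3 were higher and 0 lower (10.4% and 4.18% over all genes). Without GAP-2/3 replicate A or B, 9 and 9 were lower than with GAP-scr. Against GAP-2 the lower count was 9 and 7 without these libraries, and 9 without GAP-2 replicate B. Without the Rn45s-rich libraries 15 were lower than with GAP-scr.

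Vegfa, the main growth factor of blood vessels, was at 107 and 118 FPKM with GAP-scr, 105 and 122 FPKM with GAP-2 and 59.7 and 57.8 FPKM with GAP-2/3. Its GAP-2/3 values were below all 4 others (log2 difference -0.92, SE 0.11, limma adjusted p = 0.000193). Ndrg1, a stress-induced gene of hypoxic cells, was at 44.8 and 68.4 FPKM with GAP-scr, 76.2 and 106 FPKM with GAP-2 and 25.4 and 24.6 FPKM with GAP-2/3 (log2 difference -1.12, SE 0.19, limma adjusted p = 0.00117). Ero1l, the oxidase that forms disulfide bonds in the endoplasmic reticulum, was at 31.8 and 35.02 FPKM with GAP-scr, 49.97 and 74.6 FPKM with GAP-2 and 18.2 and 16.1 FPKM with GAP-2/3 (log2 difference -0.92, SE 0.16, limma adjusted p = 0.00153). Both Ndrg1 and Ero1l had the order GAP-2, GAP-scr, GAP-2/3 from high to low with no overlap of libraries, and both rose with GAP-2 (0.69 and 0.85, limma adjusted p = 0.0314 and 0.00623). Without GAP-2 replicate B neither rise with GAP-2 passed (0.45, limma adjusted p = 0.246 for Ndrg1 and 0.57, limma adjusted p = 0.0673 for Ero1l), and that of Ndrg1 also failed without GAP-scr replicate A and without either GAP-2/3 library (limma adjusted p = 0.0996, 0.0945 and 0.095). Car9, a carbonic anhydrase that exports acid, Adm, the vasodilator adrenomedullin, and Bnip3, a mitophagy receptor, fell with log2 differences of -1.22, -1.24 and -1.01 (limma adjusted p = 0.000393, 0.000121 and 0.000967).

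Glycolysis genes had 4 higher and 13 lower of 22, with a median of -0.38. Leaving out GAP-2/3 replicate A or B made the lower count 5 or 8. The higher count was 1 with libraries scaled to one median, 2 with quantile normalization, 2 without GAP-scr replicate A and 1 when any single GAP-2 or GAP-2/3 library was left out. Hk2, the hexokinase of muscle, was at 23.1 and 21.2 FPKM with GAP-scr, 20.8 and 22.6 FPKM with GAP-2 and 9.50 and 9.89 FPKM with GAP-2/3 (log2 difference -1.11, SE 0.11, limma adjusted p = 4.32e-05). Slc2a1, a glucose transporter, was at 71.1 and 86.4 FPKM with GAP-scr, 75.8 and 91.7 FPKM with GAP-2 and 41.02 and 42.8 FPKM with GAP-2/3 (log2 difference -0.89, SE 0.13, limma adjusted p = 0.00053). GAP-2 and control values of both genes overlapped, and both GAP-2/3 values were lower than these. Slc2a3, another glucose transporter, went the other way, at 1.46 and 3.12 FPKM with GAP-scr, 1.84 and 3.24 FPKM with GAP-2 and 13.5 and 14.1 FPKM with GAP-2/3 (log2 difference 2.22, SE 0.23, limma adjusted p = 4.63e-05). In the muscle fuel and creatine list 1 higher and 6 lower of 16 were called, and 11 lower under either scaling. Pdk4, which restrains pyruvate oxidation, rose from 11.4 and 12.4 FPKM to 36.3 and 39.02 FPKM (log2 difference 1.58, SE 0.11, limma adjusted p = 2.73e-06), while glycogen synthase Gys1 and phosphorylase Pygm fell with log2 differences of -0.89 and -0.64 (limma adjusted p = 0.000397 and 0.00136).

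Genes of the ATF4 programme were lower with GAP-2/3 than in both other groups. ATF4 binds the C/EBP-ATF response element, here searched as TGATGNAA on both strands within 250 bases before to 50 bases after RefSeq gene starts (GRCm38.p6). Of 10993 tested genes 10950 matched a RefSeq gene and 8827 had such a window. The letters were in 7 of 26 windows of the ATF4 and integrated stress response list (26.9%), 3 of 15 of the serine, one-carbon and amino acid synthesis list (20.0%), 5 of 13 of the cytosolic tRNA synthetases list (38.5%) and 4 of 24 of the amino acid transporters list (16.7%), against 2.06% of 11295 windows of tested genes. A match is a description and not a site, and genes that hold one changed in both directions. Among them was Slc7a7, an amino acid transporter gene that rose with GAP-2/3, whose stretches are not printed here. The stretches below show the element (capitals) in 6 genes that fell and in Nupr1, which rose, read on the gene's strand. Of these, Atf3 and Aars were not called without 1 library (-0.61, limma adjusted p = 0.0677 for Atf3 without GAP-2/3 replicate B, and -0.33, limma adjusted p = 0.134 for Aars without GAP-2/3 replicate A).
Chac1, chr2:119351019-119351086, + strand: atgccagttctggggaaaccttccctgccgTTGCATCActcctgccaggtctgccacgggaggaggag
Fgf21, chr7:45615592-45615659, - strand: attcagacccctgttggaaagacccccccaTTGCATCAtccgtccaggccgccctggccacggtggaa
Atf3, chr1:191183406-191183473, - strand: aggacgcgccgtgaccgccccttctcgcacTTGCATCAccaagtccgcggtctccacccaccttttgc
Vldlr, chr19:27216790-27216857, + strand: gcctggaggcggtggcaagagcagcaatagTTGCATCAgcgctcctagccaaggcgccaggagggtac
Pycr1, chr11:120643814-120643881, - strand: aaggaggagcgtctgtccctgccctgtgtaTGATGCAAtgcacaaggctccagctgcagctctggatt
Aars, chr8:111033700-111033767, + strand: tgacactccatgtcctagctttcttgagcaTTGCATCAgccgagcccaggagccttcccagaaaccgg
Nupr1, chr7:126625543-126625610, - strand: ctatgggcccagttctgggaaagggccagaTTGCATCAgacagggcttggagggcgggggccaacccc

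In the ATF4 and integrated stress response list 1 higher and 12 lower of 21 were called against GAP-scr, 0 higher and 14 lower against GAP-2, and 7 higher and 0 lower with GAP-2 against GAP-scr. The medians were -0.54, -0.98 and 0.31. Without GAP-2/3 replicate A, 9 were lower than with GAP-scr and 9 lower than with GAP-2. Chac1, which breaks down glutathione, was at 33.7 and 33.2 FPKM with GAP-scr, 31.6 and 41.8 FPKM with GAP-2 and 10.6 and 12.1 FPKM with GAP-2/3 (log2 difference -1.49, SE 0.14, limma adjusted p = 2.12e-05). Fgf21, a hormone that stressed muscle secretes, was at 313 and 202 FPKM with GAP-scr, 158 and 203 FPKM with GAP-2 and 83.9 and 81.6 FPKM with GAP-2/3 (log2 difference -1.59, SE 0.18, limma adjusted p = 0.000102). Gdf15, a stress hormone, was at 11.3 and 10.1 FPKM with GAP-scr, 22.8 and 20.2 FPKM with GAP-2 and 3.81 and 4.40 FPKM with GAP-2/3 (log2 difference -1.20, SE 0.13, limma adjusted p = 5.47e-05). The GAP-2/3 libraries were the lowest for all 3 genes, and Gdf15 was also higher with GAP-2 than with GAP-scr (0.95, limma adjusted p = 0.000776). Trib3, a pseudokinase that dampens ATF4 output, was at 26.1 and 31.5 FPKM with GAP-scr, 41.2 and 51.7 FPKM with GAP-2 and 9.66 and 13.9 FPKM with GAP-2/3 (log2 difference -1.24, SE 0.17, limma adjusted p = 0.000367). Ddit3, which encodes the stress factor CHOP, was at 39.1 and 50.6 FPKM with GAP-scr, 105 and 117 FPKM with GAP-2 and 36.7 and 42.3 FPKM with GAP-2/3. It differed from GAP-2 by -1.47 (limma adjusted p = 6.12e-05) and did not pass against GAP-scr (-0.17, limma adjusted p = 0.334). Atf4 itself was at 429 and 383 FPKM with GAP-scr, 405 and 463 FPKM with GAP-2 and 337 and 363 FPKM with GAP-2/3 and passed in none of the 3 comparisons (limma adjusted p = 0.16 against GAP-scr). The member that rose was Nupr1, a stress-induced chromatin protein, from 134 and 101 FPKM to 249 and 261 FPKM (log2 difference 1.13, SE 0.13, limma adjusted p = 0.000132).

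Enzymes that make serine, one-carbon units and amino acids had 1 higher and 12 lower of 18 against GAP-scr and 0 higher and 12 lower against GAP-2 (list: serine, one-carbon and amino acid synthesis; median -0.60 against GAP-scr). The lower count against GAP-2 was 7 without either GAP-2/3 library. Shmt2, the mitochondrial enzyme that splits serine, was at 102 and 108 FPKM with GAP-scr, 78.96 and 78.6 FPKM with GAP-2 and 35.5 and 45.2 FPKM with GAP-2/3 (log2 difference -1.37, SE 0.12, limma adjusted p = 1.72e-05). Aldh1l2, which oxidises mitochondrial formyl folate, was at 59.3 and 57.5 FPKM with GAP-scr, 78.2 and 82.9 FPKM with GAP-2 and 26.2 and 29.7 FPKM with GAP-2/3 (log2 difference -1.04, SE 0.11, limma adjusted p = 5.61e-05). Mthfd2, another mitochondrial folate enzyme, was at 74.4 and 90.6 FPKM with GAP-scr, 63.3 and 77.6 FPKM with GAP-2 and 40.01 and 38.996 FPKM with GAP-2/3 (log2 difference -1.04, SE 0.13, limma adjusted p = 0.000209). GAP-2/3 values were lowest in all 3, without overlap. Aldh18a1 and Pycr1 of proline synthesis and Pck2, the mitochondrial PEP carboxykinase, fell with log2 differences of -0.96, -0.81 and -1.29 (limma adjusted p = 0.000227, 0.001 and 0.000102).

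Cytosolic tRNA synthetases, which charge tRNAs with amino acids, had 2 higher and 9 lower of 20 against GAP-scr and 0 higher and 9 lower against GAP-2 (in the cytosolic tRNA synthetases list). Leaving out GAP-2/3 replicate A or B made the lower count against GAP-2 0 or 4, and it was 3 without either GAP-2 library. Vars, the valyl enzyme, was at 40.3 and 39.7 FPKM with GAP-scr and 18.1 and 21.8 FPKM with GAP-2/3 (log2 difference -0.97, SE 0.12, limma adjusted p = 0.00016). Cars, Mars and Yars, of cysteine, methionine and tyrosine, fell with log2 differences of -0.80, -0.82 and -0.66 (limma adjusted p = 0.000486, 0.000517 and 0.00209). The amino acid transporters list had 2 higher and 10 lower of 19 against GAP-scr and 1 higher and 8 lower against GAP-2, the latter 5 lower without either GAP-2/3 library. Slc7a5, the leucine transporter LAT1 and the lowest log2 difference among the genes of at least 5 FPKM, was at 60.3 and 68.6 FPKM with GAP-scr, 44.6 and 48.1 FPKM with GAP-2 and 16.3 and 18.5 FPKM with GAP-2/3 (log2 difference -1.83, SE 0.12, limma adjusted p = 1.32e-06). Its partner chain Slc3a2 was at 122 and 137 FPKM with GAP-scr, 113 and 126 FPKM with GAP-2 and 60.04 and 65.98 FPKM with GAP-2/3 (log2 difference -1.03, SE 0.11, limma adjusted p = 8.49e-05). All GAP-2/3 values of the pair were below all others. Slc6a9, a glycine transporter, and Slc1a5, a glutamine transporter, fell with log2 differences of -1.34 and -0.85 (limma adjusted p = 1.23e-05 and 0.00104). Slc7a7, which exports cationic amino acids, rose from 2.63 and 2.54 FPKM to 10.2 and 12.1 FPKM (log2 difference 1.76, SE 0.12, limma adjusted p = 2.73e-06).

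**Figure D3:**
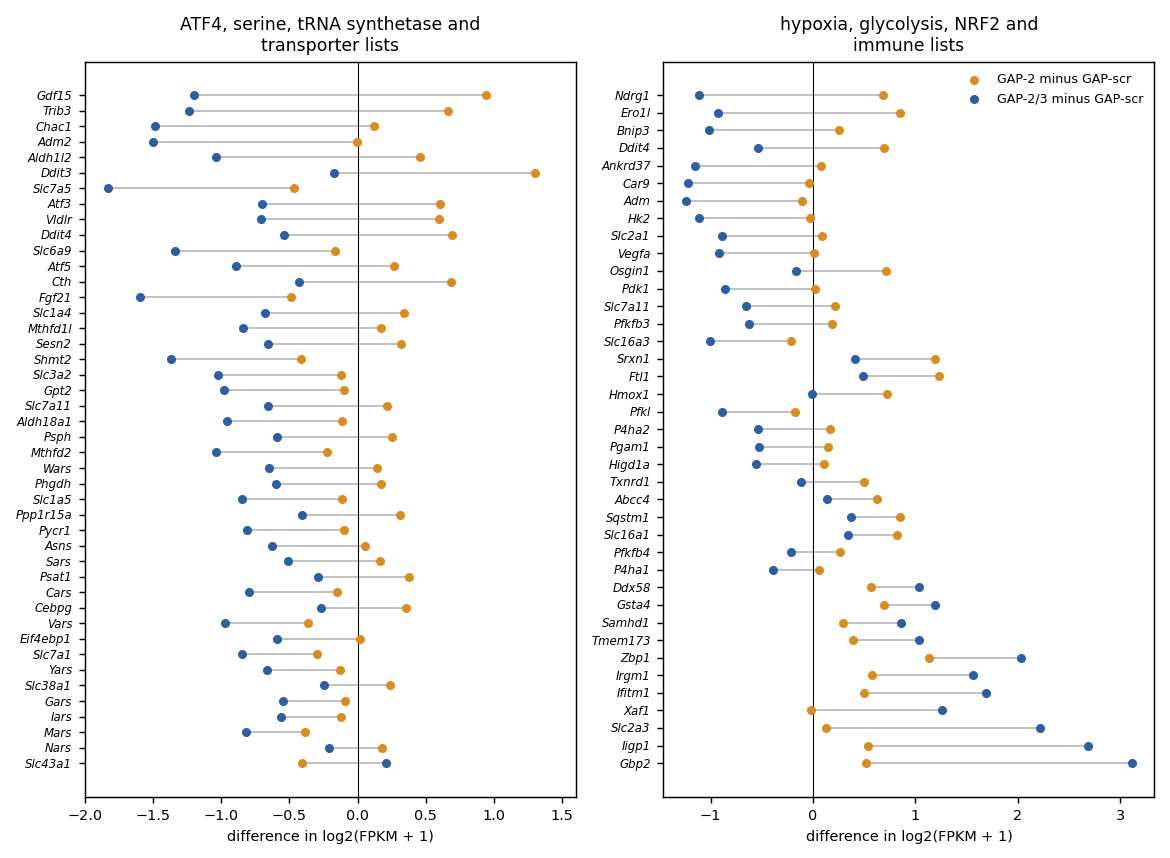
Differences in log2(FPKM + 1) from the shared GAP-scr libraries for GAP-2 (orange) and GAP-2/3 (blue), for the 44 and 39 list members called in the direct comparison of both treatments; lines join a gene's values. Gdf15 is at 0.95 and -1.20, Ndrg1 at 0.69 and -1.12, and Gbp2 at 0.51 and 3.12.

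Lipid synthesis genes were also lower. The cholesterol synthesis list had 3 higher and 10 lower of 23 (5 lower without GAP-2/3 replicate A) and the fatty acid synthesis list 0 higher and 6 lower of 14 (1 lower without GAP-2/3 replicate A, 10 with libraries scaled to one median). The sterol element searched as TCACNCCAC was in 0 of 18 windows of the cholesterol list and in 1.14% of windows of tested genes. Dhcr7, the last step of cholesterol synthesis, was at 30.1 and 31.8 FPKM with GAP-scr and 15.9 and 16.1 FPKM with GAP-2/3 (log2 difference -0.91, SE 0.11, limma adjusted p = 0.000129). Srebf2, the transcription factor of the pathway, was at 154 and 151 FPKM with GAP-scr and 86.1 and 105 FPKM with GAP-2/3 (log2 difference -0.68, SE 0.12, limma adjusted p = 0.0014). No control library overlapped with a GAP-2/3 library in these 2 genes, and the desaturase family member Fads3 fell by 0.89 (limma adjusted p = 0.000112).

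Detoxification genes were higher with GAP-2/3 than with GAP-scr. The NRF2 antioxidant and detoxification list had 17 higher and 1 lower of 30 with GAP-2/3 and 19 higher and 0 lower with GAP-2, both against the same control libraries. With GAP-2/3 the higher count was 11 under either scaling, 9 without GAP-2/3 replicate A and 9 without replicate B. The antioxidant element searched as TGACNNNGC was in 10 of 32 windows (31.2%), against 14.3% of windows of tested genes. Nqo1, a quinone reductase and classic NRF2 target, was at 5.62 and 6.62 FPKM with GAP-scr, 35.6 and 38.005 FPKM with GAP-2 and 32.1 and 31.1 FPKM with GAP-2/3 (log2 difference 2.20, SE 0.12, limma adjusted p = 2.4e-07). Gclc, which starts glutathione synthesis, was at 8.88 and 9.99 FPKM with GAP-scr, 16.6 and 16.95 FPKM with GAP-2 and 18.003 and 18.8 FPKM with GAP-2/3 (log2 difference 0.89, SE 0.11, limma adjusted p = 0.000221). Neither passed between the gapmer sets (limma adjusted p = 0.274 and 0.524). Other targets were lower with GAP-2/3 than with GAP-2, where 1 was higher and 8 were lower of the list (2 lower without GAP-2/3 replicate A, 5 without replicate B and 5 without GAP-2 replicate A). Hmox1, heme oxygenase, was at 47.4 and 41.6 FPKM with GAP-scr, 70.7 and 76.9 FPKM with GAP-2 and 43.2 and 45.1 FPKM with GAP-2/3, with a direct difference of -0.73 (limma adjusted p = 0.00196; -0.70, limma adjusted p = 0.0577 without GAP-2/3 replicate A). Srxn1, sulfiredoxin, was at 7.53 and 8.36 FPKM with GAP-scr, 19.2 and 19.5 FPKM with GAP-2 and 10.5 and 11.3 FPKM with GAP-2/3, with a direct difference of -0.78 (limma adjusted p = 0.00158). Of 5 metallothionein and zinc genes 3 were higher and 1 lower: the metal-binding gene Mt2 was at 3.54 and 5.17 FPKM with GAP-scr, 6.09 and 6.15 FPKM with GAP-2 and 21.5 and 22.97 FPKM with GAP-2/3 (log2 difference 2.13, SE 0.15, limma adjusted p = 2.34e-06), and Mt1 and the zinc exporter Slc30a1 rose by 2.07 and 1.31 (limma adjusted p = 5.03e-05 and 0.000105).

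Interferon-inducible genes were higher with GAP-2/3. With GAP-2, against the same GAP-scr libraries, 7 of 21 tested members of the interferon response list were higher and 0 lower. Over all genes these shares were 10.4% and 4.18%. The core of the interferon-stimulated response element, searched as GAAANNGAA on both strands, was in 9 of 21 windows of the interferon response list (42.9%), against 6.65% of windows of tested genes. The stretches below show it in capitals for 3 genes that rose and for Bst2, the member that was lower.
Gbp2, chr3:142620575-142620643, + strand: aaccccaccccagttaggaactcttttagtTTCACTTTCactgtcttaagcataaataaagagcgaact
Irgm1, chr11:48871421-48871480, - strand: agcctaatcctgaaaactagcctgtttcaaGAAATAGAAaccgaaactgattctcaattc
Isg15, chr4:156200858-156200926, - strand: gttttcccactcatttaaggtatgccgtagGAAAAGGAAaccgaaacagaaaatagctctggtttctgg
Bst2, chr8:71537564-71537632, - strand: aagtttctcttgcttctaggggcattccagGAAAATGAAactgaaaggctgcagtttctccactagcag

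Of 21 tested members of the interferon response list, 12 were higher and 1 lower than with GAP-scr and 5 higher and 0 lower than with GAP-2 (8 and 9 higher when GAP-scr replicate A or B was left out of the joint fit). Gbp2, a guanylate-binding protein that attacks pathogen vacuoles, was at 0.694 and 0.469 FPKM with GAP-scr, 1.30 and 1.203 FPKM with GAP-2 and 13.1 and 12.3 FPKM with GAP-2/3 (log2 difference 3.12, SE 0.13, limma adjusted p = 7.2e-08). Irgm1, an immunity-related GTPase, was at 17.8 and 19.7 FPKM with GAP-scr, 28.5 and 28.3 FPKM with GAP-2 and 58.3 and 56.6 FPKM with GAP-2/3 (log2 difference 1.56, SE 0.11, limma adjusted p = 2.35e-06). Xaf1, a pro-apoptotic interferon target, was at 1.99 and 2.74 FPKM with GAP-scr, 1.91 and 2.75 FPKM with GAP-2 and 7.43 and 6.66 FPKM with GAP-2/3 (log2 difference 1.26, SE 0.16, limma adjusted p = 0.000193). In each of these the GAP-2/3 libraries were highest, and the direct differences to GAP-2 were 2.60, 0.99 and 1.28 (limma adjusted p = 6.65e-07, 0.000188 and 0.000439). Iigp1, another such GTPase, was near 0 with GAP-scr (0.159 and 0.0755 FPKM) and at 5.93 and 6.41 FPKM with GAP-2/3 (log2 difference 2.68, SE 0.12, limma adjusted p = 1.05e-07). Isg15, the ubiquitin-like modifier, was at 5.01 and 4.66 FPKM with GAP-scr, 8.31 and 9.63 FPKM with GAP-2 and 9.23 and 8.56 FPKM with GAP-2/3, with -0.01 between the gapmer sets (limma adjusted p = 0.972). Ifitm1 rose by 1.69 (limma adjusted p = 1.41e-05), though reads of the Ifitm family may be shared between near-identical copies. Bst2, tetherin, was at 52.6 and 36.5 FPKM with GAP-scr and 32.5 and 30.7 FPKM with GAP-2/3 (log2 difference -0.46, SE 0.15, limma adjusted p = 0.0339); it was not called in 4 of the alternative fits, with log2 differences there of -0.50 to -0.20.

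The nucleic acid sensing and RNase H list had 5 higher and 0 lower of 14 against GAP-scr and 4 higher and 0 lower against GAP-2 (1 or 2 when any GAP-2 or GAP-2/3 library was left out). Zbp1, a sensor of Z-form nucleic acid, was at 3.08 and 3.09 FPKM with GAP-scr, 7.91 and 8.07 FPKM with GAP-2 and 14.9 and 16.7 FPKM with GAP-2/3 (log2 difference 2.04, SE 0.12, limma adjusted p = 5.67e-07). Ddx58, the RNA sensor RIG-I, was at 7.13 and 5.38 FPKM with GAP-scr, 9.74 and 9.56 FPKM with GAP-2 and 13.8 and 13.9 FPKM with GAP-2/3 (log2 difference 1.04, SE 0.13, limma adjusted p = 0.000228). Tmem173, the DNA-sensing adaptor STING, was at 9.44 and 12.2 FPKM with GAP-scr, 14.2 and 14.5 FPKM with GAP-2 and 23.4 and 22.7 FPKM with GAP-2/3 (log2 difference 1.04, SE 0.13, limma adjusted p = 0.000193). All 3 were highest with GAP-2/3, whereas Rnaseh1, the nuclease that gapmers rely on, was at 5.9996 and 7.32 FPKM with GAP-scr and 7.05 and 5.80 FPKM with GAP-2/3 and did not pass (limma adjusted p = 0.806).

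Of 21 genes in the list of chemokines, cytokines and NF-kB, 14 were higher and 3 lower against GAP-scr, 7 higher and 3 lower against GAP-2 (2 or 3 higher when any GAP-2 or GAP-2/3 library was left out) and 12 higher and 1 lower with GAP-2 against GAP-scr. The median with GAP-2/3 was 0.63, 0.50 relative to all genes. Il33, an alarmin of stromal cells, was at 4.10 and 4.86 FPKM with GAP-scr, 14.5 and 15.99 FPKM with GAP-2 and 41.2 and 35.01 FPKM with GAP-2/3 (log2 difference 2.83, SE 0.13, limma adjusted p = 1.05e-07). Ccl2, the monocyte chemokine, was at 4.53 and 4.90 FPKM with GAP-scr, 22.1 and 18.1 FPKM with GAP-2 and 13.3 and 12.4 FPKM with GAP-2/3 (log2 difference 1.28, SE 0.13, limma adjusted p = 3.67e-05). Cxcl12, a chemokine of stem cell niches, was at 4.96 and 4.45 FPKM with GAP-scr, 10.3 and 8.05 FPKM with GAP-2 and 14.8 and 14.96 FPKM with GAP-2/3 (log2 difference 1.48, SE 0.13, limma adjusted p = 1.7e-05). Ccl2 was highest with GAP-2, and Il33 and Cxcl12 with GAP-2/3. Tlr2, a receptor for bacterial lipoproteins, and Nfkbia, the NF-kB inhibitor that NF-kB itself induces, rose by 1.59 and 0.98 (limma adjusted p = 4.11e-06 and 0.000181). Macrophage markers summed to 3.12 and 4.04 FPKM with GAP-scr and 5.55 and 5.25 FPKM with GAP-2/3, over the 2 of 13 tested.

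The antigen presentation list was divided, with 6 higher and 3 lower of 12. H2-T23 and the proteasome activator Psme2 rose by 1.02 and 0.97 (limma adjusted p = 0.00016 and 0.000339). H2-K1, a classical class I heavy chain, fell from 19.6 and 14.02 FPKM to 7.23 and 7.11 FPKM (log2 difference -1.11, SE 0.15, limma adjusted p = 0.000428). Class I genes are near-identical to each other, so reads may be split between them. In the complement and acute phase list 3 were higher and 0 lower of 4 tested, including ceruloplasmin Cp (1.13, limma adjusted p = 5.52e-05).

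**Figure D4:**
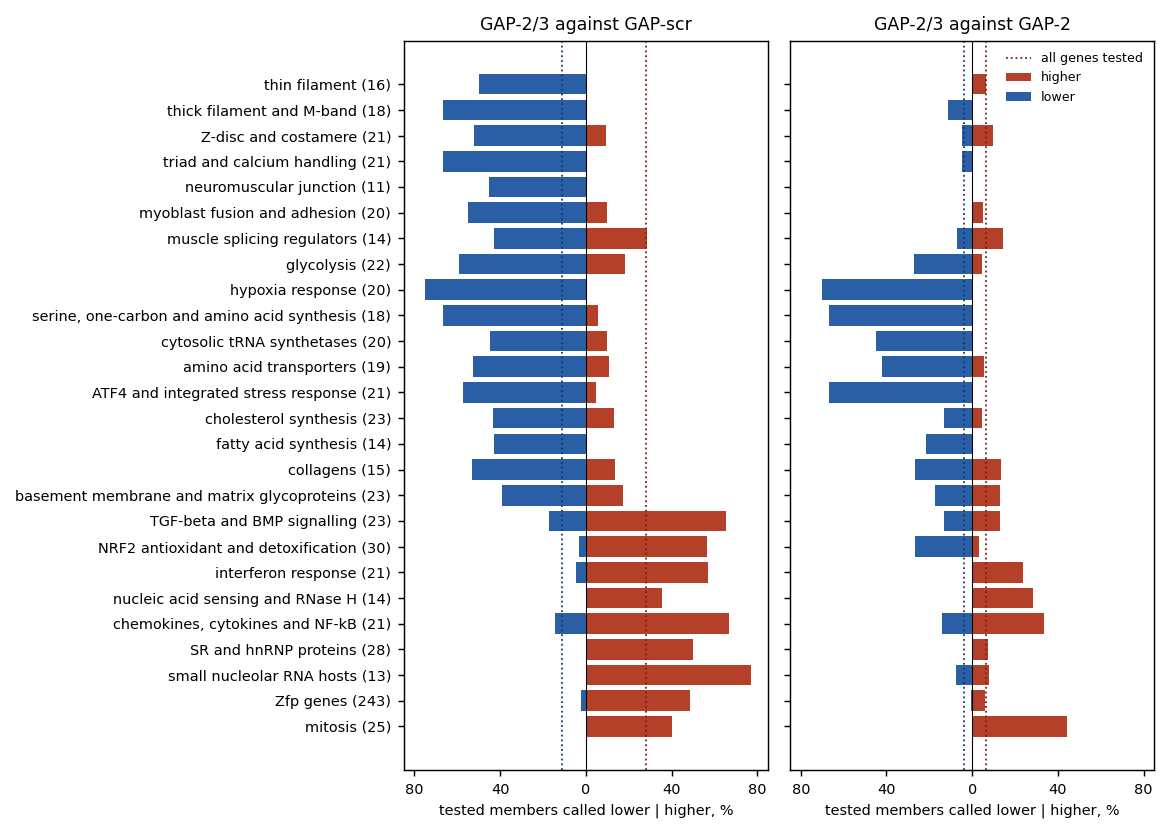
Percent of tested members called higher (red, right) and lower (blue, left) in 26 gene lists, with the number tested in brackets, for GAP-2/3 against GAP-scr and against GAP-2; dotted lines mark all genes tested (28.0% and 11.3%, then 6.5% and 3.65%). The thick filament and M-band list has 12 lower members on the left and 2 on the right, the hypoxia response list 15 and 14.

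The collagens list had 2 higher and 8 lower of 15 (3 lower without GAP-2/3 replicate A) and the basement membrane and matrix glycoproteins list 4 higher and 9 lower of 23 (14 and 15 lower under quantile and median scaling). Col1a1, the main fibrillar collagen, was at 778 and 808 FPKM with GAP-scr, 789 and 632 FPKM with GAP-2 and 385 and 456 FPKM with GAP-2/3 (log2 difference -0.92, SE 0.13, limma adjusted p = 0.000495). Hspg2, perlecan of basement membranes, was at 86.4 and 87.3 FPKM with GAP-scr, 56.6 and 48.2 FPKM with GAP-2 and 34.3 and 38.99 FPKM with GAP-2/3 (log2 difference -1.23, SE 0.12, limma adjusted p = 2.71e-05). Fn1, fibronectin, was at 1297 and 1346 FPKM with GAP-scr, 989 and 862 FPKM with GAP-2 and 694 and 851 FPKM with GAP-2/3 (log2 difference -0.78, SE 0.13, limma adjusted p = 0.00101). Both GAP-2/3 values lay below all others in these 3 genes. Dcn, decorin, went from 52.6 and 37.2 FPKM to 123.2 and 128 FPKM (log2 difference 1.48, SE 0.14, limma adjusted p = 2.88e-05), Vcan, versican, from 47.5 and 35.8 FPKM to 104 and 101 FPKM (log2 difference 1.29, SE 0.13, limma adjusted p = 4.07e-05), and Has2, which makes hyaluronan, from 12.6 and 13.1 FPKM to 75.7 and 70.9 FPKM (log2 difference 2.43, SE 0.11, limma adjusted p = 1.05e-07). With GAP-2, Has2 was at 14.04 and 15.5 FPKM, and its direct difference was 2.24 (limma adjusted p = 6.65e-07).

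The matrix proteases and inhibitors list had 5 higher and 9 lower of 20 (4 lower without GAP-2/3 replicate A, and 2 or 3 higher without GAP-scr replicate A, without either GAP-2/3 library or with libraries scaled to one median). Adamts2, which trims procollagen, fell by 0.97 and Mmp11 by 0.70, while Mmp19 rose by 1.37 (limma adjusted p = 0.000209, 0.000988 and 2.12e-05). Most fibroblast markers tested rose, whereas more members of the matrix lists were lower than higher. Of 9 markers tested of 13, 7 were higher and none lower. Their summed level was 4268 and 4946 FPKM with GAP-scr, 6018 and 6093 FPKM with GAP-2 and 9553 and 9209 FPKM with GAP-2/3. S100a4 and Vim, the most abundant of them, rose from 2859.6 and 3313 to 6605 and 6004 FPKM and from 1278 and 1514 to 2720.1 and 2964 FPKM (limma adjusted p = 0.000152 and 0.000164). Pdgfra, a defining receptor of fibroblasts, was at 1.69 and 1.51 FPKM with GAP-scr and 3.62 and 4.32 FPKM with GAP-2/3 (log2 difference 0.93, SE 0.13, limma adjusted p = 0.000356). The fibroblast markers Pdgfrb and Fbln1 were not called, with differences in mean FPKM of -6.18 and -0.49. The marker Cd34, called higher, lost its call under either scaling. The part of fibroblasts in the matrix and contractile results was not tested.

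Growth factor pathways changed gene by gene. The TGF-beta and BMP signalling list had 15 higher and 4 lower of 23, with 8 and 9 higher under median and quantile scaling, 7 and 6 without GAP-2/3 replicate A or B and 9 without the Rn45s-rich libraries. Ligands differed: Bmp4 rose from 1.02 and 1.24 FPKM to 4.74 and 4.96 FPKM (log2 difference 1.46, SE 0.13, limma adjusted p = 1.23e-05), Inhba, which encodes the activin A subunit, rose by 1.12, and Tgfb3 fell by 0.81 (limma adjusted p = 0.000138 and 0.000568). The receptor gene Tgfbr1 rose by 0.73, the activin antagonist Fstl3 fell by 1.03 and the BMP target Id3 rose by 1.04 (limma adjusted p = 0.00203, 0.000722 and 0.000311).

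In the Wnt pathway list 8 higher and 3 lower of 21 were called. Axin2, a feedback inhibitor and target of beta-catenin, was at 0.173 and 0.246 FPKM with GAP-scr, 1.77 and 1.997 FPKM with GAP-2 and 2.02 and 2.47 FPKM with GAP-2/3 (log2 difference 1.42, SE 0.13, limma adjusted p = 1.81e-05). Sfrp2, a secreted Wnt modulator, was at 0.751 and 0.644 FPKM with GAP-scr, 3.59 and 2.82 FPKM with GAP-2 and 6.03 and 6.20 FPKM with GAP-2/3 (log2 difference 2.07, SE 0.13, limma adjusted p = 1.24e-06). Control values of both were under 1 FPKM and lay below every gapmer value. The co-receptor gene Lrp5 fell by 1.03 (limma adjusted p = 0.000188). In the Notch pathway list 3 were higher and 6 lower of 18 (3 lower without GAP-2/3 replicate A); the receptor gene Notch3 was at 53.6 and 52.8 FPKM with GAP-scr and 24.1 and 27.1 FPKM with GAP-2/3 (log2 difference -1.03, SE 0.12, limma adjusted p = 0.000143) and the target Heyl at 68.3 and 50.4 FPKM with GAP-scr and 25.5 and 31.97 FPKM with GAP-2/3 (log2 difference -1.01, SE 0.16, limma adjusted p = 0.000971).

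The insulin, IGF and mTOR list had 5 higher and 11 lower of 26 (3 lower and 3 higher without GAP-2/3 replicate A, 6 lower without the Rn45s-rich libraries). Igf2, the main autocrine growth factor of differentiating myoblasts, was at 533 and 441 FPKM with GAP-scr, 321 and 321 FPKM with GAP-2 and 254 and 272 FPKM with GAP-2/3 (log2 difference -0.88, SE 0.12, limma adjusted p = 0.000298). Rptor, a defining subunit of mTOR complex 1, was at 36.01 and 32.02 FPKM with GAP-scr and 15.7 and 17.03 FPKM with GAP-2/3 (log2 difference -1.01, SE 0.12, limma adjusted p = 0.000143). Irs1, the insulin receptor substrate, was at 15.4 and 13.1 FPKM with GAP-scr and 27.1 and 30.2 FPKM with GAP-2/3 (log2 difference 0.96, SE 0.12, limma adjusted p = 0.000199). The ligand, the receptor gene Igf1r (-0.64) and Rptor were lower, while Irs1 and Igfbp6 (1.15), a binding protein that prefers IGF-II, were higher (limma adjusted p = 0.00185 for Igf1r and 3.06e-05 for Igfbp6). Of 13 imprinted genes 0 were higher and 5 lower (2 lower without GAP-2/3 replicate A), of which Cdkn1c, a cyclin-dependent kinase inhibitor, was at 148 and 137 FPKM with GAP-scr, 66.3 and 84.96 FPKM with GAP-2 and 51.8 and 46.1 FPKM with GAP-2/3 (log2 difference -1.52, SE 0.13, limma adjusted p = 1.22e-05). The list of muscle atrophy and ubiquitin ligases had 1 higher and 7 lower of 16 (3 and 4 lower without GAP-2/3 replicate A or B), with the ligase gene Trim63 (MuRF1) at -0.73 and the myosin chaperone gene Unc45b at -0.55 (limma adjusted p = 0.00192 and 0.00256).

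Of 24 immediate early and ERK feedback genes, 5 were higher and 2 lower (8 higher without GAP-scr replicate B). Egr2, an early growth response factor, was at 21.7 and 27.1 FPKM with GAP-scr, 21.7 and 25.1 FPKM with GAP-2 and 54.7 and 68.6 FPKM with GAP-2/3 (log2 difference 1.30, SE 0.14, limma adjusted p = 8.54e-05). Dusp6, the phosphatase that ERK induces, was at 54.6 and 65.3 FPKM with GAP-scr, 41.1 and 44.7 FPKM with GAP-2 and 91.1 and 89.3 FPKM with GAP-2/3 (log2 difference 0.59, SE 0.12, limma adjusted p = 0.0029). GAP-2/3 libraries were highest for both, and Dusp6 was lower with GAP-2 than with GAP-scr (-0.47, limma adjusted p = 0.0219), a call lost without any 1 library other than GAP-scr replicate A (limma adjusted p = 0.056 to 0.17). The axon guidance list had 8 higher and 13 lower of 40 (6 lower without GAP-2/3 replicate A, 5 higher without replicate B). Among its receptors Epha3 and Robo2 rose by 1.20 and 0.99, and the ligand genes Sema3a and Sema3e moved apart, by 0.95 and -0.78 (limma adjusted p = 4.4e-05, 0.000309, 0.000167 and 0.000899).

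Of the cell cycle lists, the mitosis list had the highest share of members called higher, 40% against 28.0% of all genes. It had 10 higher and 0 lower of 25 against GAP-scr and 11 higher and 0 lower against GAP-2, and 0 higher and 0 lower with GAP-2 against GAP-scr. Against GAP-scr, 5 were higher when GAP-2/3 replicate A was left out, and 5 with quantile normalization. Against GAP-2 it was 0 when either GAP-2/3 library or GAP-2 replicate A was left out, 5 when GAP-2 replicate B was, and 6 without the Rn45s-rich libraries. Cdk1, the kinase that starts mitosis, was at 4.62 and 5.70 FPKM with GAP-scr, 5.82 and 6.09 FPKM with GAP-2 and 10.3 and 9.11 FPKM with GAP-2/3 (log2 difference 0.80, SE 0.13, limma adjusted p = 0.000988). Cenpf, a kinetochore protein, was at 1.04 and 0.787 FPKM with GAP-scr, 1.12 and 1.19 FPKM with GAP-2 and 2.38 and 2.23 FPKM with GAP-2/3 (log2 difference 0.79, SE 0.13, limma adjusted p = 0.000836). Kif11, the spindle motor, was at 1.15 and 0.997 FPKM with GAP-scr, 0.921 and 1.12 FPKM with GAP-2 and 2.14 and 2.12 FPKM with GAP-2/3 (log2 difference 0.59, SE 0.12, limma adjusted p = 0.00375). Levels of these genes were low in every library, up to 10.3 FPKM for Cdk1 in GAP-2/3. The DNA replication list, at 34.3% nearer to all genes, had 12 higher and 1 lower of 35, with a median of 0.11 relative to all genes, but 6 higher and 6 lower under quantile normalization, and 5 and 6 higher without GAP-2/3 replicate A or B. Cdc45, part of the replicative helicase, rose from 3.66 and 3.81 FPKM to 7.73 and 8.03 FPKM (log2 difference 0.91, SE 0.12, limma adjusted p = 0.000247). In the list of cyclins, CDK inhibitors and Rb family, 4 were higher and 2 lower of 14 (28.6% higher, close to the share over all genes; 2 higher without GAP-2/3 replicate A), with Ccnd1, cyclin D1, at 14.8 and 17.9 FPKM with GAP-scr, 38.1 and 39.7 FPKM with GAP-2 and 43.1 and 47.7 FPKM with GAP-2/3 (log2 difference 1.43, SE 0.12, limma adjusted p = 1.07e-05).

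Genes of RNA processing were higher by small amounts. The SR and hnRNP proteins list had 14 higher and 0 lower of 28 (4 without GAP-2/3 replicate A, 9 and 7 under quantile and median scaling), with Hnrnpa2b1 at 0.55 and Hnrnpc at 0.56 (limma adjusted p = 0.00245 and 0.00227). Of 13 small nucleolar RNA hosts 10 were higher and 0 lower (3 higher without GAP-2/3 replicate A), with a median of 0.59. Gas5, a host whose spliced RNA is unstable in translating cells, was at 5.66 and 5.59 FPKM with GAP-scr, 8.65 and 9.06 FPKM with GAP-2 and 10.3 and 8.99 FPKM with GAP-2/3 (log2 difference 0.68, SE 0.12, limma adjusted p = 0.0015). Among 243 numbered Zfp genes, which encode zinc finger proteins, 118 were higher and 6 lower than with GAP-scr, with a median of 0.33 or 0.20 relative to all genes. That was 82 higher and 16 lower under median scaling, 65 and 20 under quantile normalization, and 38 and 1 without GAP-2/3 replicate A. Zfp260 was at 19.9 and 17.9 FPKM with GAP-scr, 25.01 and 27.8 FPKM with GAP-2 and 37.1 and 30.999 FPKM with GAP-2/3 (log2 difference 0.81, SE 0.12, limma adjusted p = 0.000697).

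In the mitochondrial ribosome list 19 were higher and 0 lower of 73 (3 and 9 higher without GAP-2/3 replicate A or B, 9 and 8 under quantile and median scaling), with Mrpl42 at 0.63 (limma adjusted p = 0.00129). The oxidative phosphorylation list had 13 higher and 5 lower of 78, which became 6 higher and 7 lower under quantile normalization and 3 and 7 under median scaling, and 1 and 3 without GAP-2/3 replicate A. Without GAP-scr replicate A its lower count was 12. The muscle isoforms Cox6a2 and Cox8b of cytochrome oxidase were at 91.6 and 81.4 FPKM with GAP-scr and 50.3 and 41.6 FPKM with GAP-2/3 and at 79.4 and 82.6 FPKM with GAP-scr and 43.03 and 50.3 FPKM with GAP-2/3, respectively (log2 differences -0.90 and -0.79, limma adjusted p = 0.000372 and 0.000442). The cytosolic ribosomal proteins list had 11 higher and 1 lower of 81, and 2 higher and 2 lower under median scaling, 2 and 3 higher without GAP-2/3 replicate A or B, and 22 higher without GAP-scr replicate A. The mitochondrial ribosome, oxidative phosphorylation and cytosolic ribosomal lists had 26.0%, 16.7% and 13.6% of members higher. All were below the 28.0% over all genes. Their lower shares, 0%, 6.41% and 1.23%, were below the 11.3% over all genes. Ribosomal protein genes have near-identical copies among which reads may be split.

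Several of the most raised genes mark other cell types. S100b, a calcium-binding protein of glia and cartilage and the highest log2 difference among genes of at least 5 FPKM, was at 1.18 and 2.33 FPKM with GAP-scr, 4.50 and 4.04 FPKM with GAP-2 and 28.5 and 30.8 FPKM with GAP-2/3 (log2 difference 3.51, SE 0.17, limma adjusted p = 1.49e-07). Schwann and glial markers had 2 of 12 tested, S100b and the myelin gene Pmp22, both higher, with sums of 10.1 and 16.7 FPKM with GAP-scr and 58.5 and 59.4 FPKM with GAP-2/3. Krt19, a keratin, was at 1.07 and 2.49 FPKM with GAP-scr, 2.57 and 3.88 FPKM with GAP-2 and 16.8 and 16.9 FPKM with GAP-2/3 (log2 difference 2.73, SE 0.22, limma adjusted p = 6.12e-06), and Perp, a desmosomal p53 target, at 0.466 and 0.75 FPKM with GAP-scr, 10.5 and 10.6 FPKM with GAP-2 and 9.32 and 10.5 FPKM with GAP-2/3 (log2 difference 2.77, SE 0.13, limma adjusted p = 1.05e-07). Epithelial markers had 3 of 10 tested, all higher, with Epcam and Cdh1 not among the tested genes. Bone and cartilage markers had 4 higher of 6 tested of 12 and summed to 853 and 1087 FPKM, 835 and 930.2 FPKM and 2252 and 1813 FPKM in GAP-scr, GAP-2 and GAP-2/3. Of these markers Mgp, matrix Gla protein, was at 126 and 231 FPKM with GAP-scr, 234 and 233 FPKM with GAP-2 and 833 and 755 FPKM with GAP-2/3 (log2 difference 2.21, SE 0.21, limma adjusted p = 2.57e-05). Anxa1, an annexin with anti-inflammatory roles, rose from 214 and 233 FPKM to 1087 and 1038 FPKM (log2 difference 2.24, SE 0.11, limma adjusted p = 1.05e-07). Enpp2, autotaxin, and Slc16a4, a monocarboxylate transporter family member, rose by 2.98 and 2.96, and were also higher with GAP-2 than with GAP-scr (2.41 and 2.21, limma adjusted p = 1.9e-06 and 6.11e-07). Smooth muscle and pericyte markers, 7 of 9 tested, had 3 lower and none higher, and summed to 2205 and 2453 FPKM with GAP-scr and 1653 and 1637 FPKM with GAP-2/3.

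Directly against GAP-2, 714 genes were higher with GAP-2/3 and 401 lower of 10993 (limma adjusted p under 0.05), and 75 and 50 of these passed 2-fold. This comparison is sensitive to single libraries: from 195 to 2052 genes were called when 1 library was left out, with 195 without GAP-2/3 replicate A. The contractile lists had few calls here. These were 1 higher and 0 lower in the thin filament list and 0 and 2 in the thick filament and M-band list. In the Z-disc and costamere list they were 2 and 1, and in the triad and calcium handling list 0 and 1. The thick filament and M-band share, 11.1% lower, compares with 3.65% over all genes. Few calls do not show that the treatments act alike on these lists. Acta1 differed by 0.08 with an SE of 0.12 between the gapmer sets (limma adjusted p = 0.717). Ednra, an endothelin receptor, was at 2.26 and 2.86 FPKM with GAP-scr, 2.11 and 2.11 FPKM with GAP-2 and 11.2 and 12.3 FPKM with GAP-2/3 (GAP-2/3 minus GAP-2, log2 difference 2.03, SE 0.13, limma adjusted p = 3.37e-06). The lowest direct difference was that of Amd1, of polyamine synthesis, at 0.0603 and 13.4 FPKM in the GAP-2/3 libraries and 19.6 and 52.99 FPKM in the GAP-2 libraries (log2 difference -3.09, SE 0.87, limma adjusted p = 0.044). Its libraries scatter within each group, near-identical copies of the gene exist, and without GAP-2/3 replicate A the call was lost (-1.21, limma adjusted p = 0.34).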

How the data were processed

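Polyadenylated RNA of in vitro differentiated mouse myotubes was sequenced with a stranded kit, per the labels' protocols, in 2 libraries a group. ChIRP-seq samples of the series are not used here. The authors deposited FPKM, 1 column per library. The submitters' processing notes name CASAVA, FastQC, Trimmomatic, cutadapt, TopHat2, Bowtie2, Cufflinks, Cuffdiff, MACS and bedtools and the build mm9, with no roles or versions. Use of strand in counting, and the filter behind the table (lowest maximum of a gene 1.03 FPKM), are not given in the sources used. Whole reads could not be recovered from FPKM, so sequencing depth and counting error are unknown.

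Values were transformed as log2(FPKM + 1), a pseudocount of 1, and 10993 genes averaging 1 FPKM or more over the 6 libraries were tested (235 fell below). The 3 groups shared a single limma fit (version 3.58.1, R 4.3.3; intensity trend, two-sided moderated test, 3 residual degrees of freedom), with Benjamini-Hochberg adjustment over all genes and a threshold of 0.05. Tables were made with Python 3.11.15 and pandas 2.3.3. Gene lists are described by counts of called members and medians, beside the same over all genes. On simulated data for GAP-2/3 against GAP-scr over 10993 genes, the fit recovered 96% of 100 genes changed by 1 on the log2 scale. It recovered 27% of 100 changed by 0.5 and called 5 unchanged genes. The simulated noise was normal, independent between libraries and drawn from the spread that the same fit estimated. Only these genes were changed, with no shift over all genes and no outlying library. The simulation therefore checks the fit and cannot give error rates for the real libraries.

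Named genes were the 15 highest and 15 lowest log2 differences among called genes that averaged at least 5 FPKM and did not overlap, the 8 largest rises and falls in FPKM, the 8 highest and lowest against GAP-2, and up to 6 members of each list by p plus 2 that changed the other way. Only part of these are printed. Myog, Myh3, Atf3, Atf4, Ddit3, Vldlr, Aars, Isg15, Srxn1, Hmox1, Rnaseh1 and Rn45s lie outside this rule and were chosen after their values were seen. The members and lists were chosen with earlier results of these data known. Sequences come from RefSeq promoter windows of GRCm38.p6, with 10266 genes matched by symbol and the rest by other names. Alternatives changed the pseudocount, filter, scaling, trend, threshold, block and libraries.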

Additional observations from a re-analysis of the deposited data

Results flagged for a closer look

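For 28 genes both gapmer sets were called against GAP-scr in opposite directions and the direct difference between the sets was called as well; 18 of these were lower with GAP-2/3. The 17 that averaged at least 5 FPKM and whose libraries did not overlap are given here as log2 differences of GAP-2/3 minus GAP-2, all past a limma adjusted p of 0.05. Of these, 12 were lower with GAP-2/3. Stress hormone Gdf15 had -2.14, the pseudokinase gene Trib3 -1.90 and Aldh1l2 -1.50. Cth, which makes cysteine, had -1.12 and Psat1 of serine synthesis -0.67. Ndrg1 had -1.80, Ero1l -1.78 and the mTOR inhibitor gene Ddit4 -1.24. Apln, which encodes the peptide apelin, had -1.47, the BMP antagonist gene Grem1 -1.37, the desmosomal gene Pkp1 -0.99 and the lysosomal thiol reductase gene Ifi30 -0.71. The other 5 were higher with GAP-2/3: the prostaglandin receptor gene Ptger4 had 1.05, the ERK phosphatase gene Dusp6 1.05, the kinase gene Camk1g 1.09, the ephrin receptor gene Epha1 1.40 and the zinc finger gene Zscan26 1.49. Leaving out 1 library ended at least 1 of the 3 calls for 15 of these 17 genes, and Gdf15 and Epha1 kept all 3. The direct difference was lost for 1 gene, Camk1g without GAP-2/3 replicate B (0.94, limma adjusted p = 0.0513). The call of GAP-2/3 against GAP-scr was lost for 8 genes, among them Grem1 without GAP-2/3 replicate B (-0.27, limma adjusted p = 0.178), and that of GAP-2 against GAP-scr for 13. By library, 8 and 11 genes lost a call without GAP-2 replicate A or B, 11 and 9 without GAP-2/3 replicate A or B, and 5 and 6 without GAP-scr replicate A or B.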

How the results depend on the processing

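None of the 401 named genes called against GAP-scr reversed its sign in the alternatives run. Of 401 named genes called against GAP-scr, 1 lost its call with a pseudocount of 0.1, 3 with no intensity trend, 30 with quantile normalization, 39 with libraries scaled to one median, 19 with only the libraries of the groups compared and 134 or 58 when GAP-2/3 replicate A or B was left out. Quantile normalization gave 1820.0 higher and 1960.0 lower genes for GAP-2/3 against GAP-scr, 493 and 503 between the gapmer sets, and 692 and 687 with GAP-2 set against the control. Scaling to one median gave 1888 and 1817, 476 and 436, and 686 and 642. With a mean of at least 5 FPKM, 8508 genes were tested and 472 were higher with GAP-2/3 than with GAP-2. A threshold of 0.1 called 1781 genes there (1152 higher, 629 lower) and 2567 with GAP-2 against GAP-scr (1786 higher, 781 lower). With only the libraries of the groups compared, 2055 (1338 higher, 717 lower) and 937 (675 higher, 262 lower) were called, and the cause was not tested. Leaving out 1 library gave 1538 to 4481 genes for GAP-2/3 against GAP-scr (1136 to 3241 higher, 402 to 1240.0 lower), 195 to 2052 against GAP-2 (117 to 1330.0 higher, 78 to 722 lower) and 504 to 2624 for GAP-2 against GAP-scr (353 to 1880.0 higher, 143 to 744 lower), where a group left with 1 library is assumed to vary like the others. Of 64 lists, 35 moved their higher count and 37 their lower count by over 1.5 times without GAP-2/3 replicate A. Without both Rn45s-rich libraries, chosen after seeing the data, 3959, 872 and 1511 genes were called. Replicate letters are not said to mark a shared batch, and deviations of same-lettered libraries correlated at 0.36 for GAP-scr and GAP-2, whose A libraries are the Rn45s-rich ones, and at -0.131 and -0.181 for GAP-2/3 with GAP-scr and with GAP-2. Letters were not used as pairs, and what the former pair shares was not tested. With the letter as a replicate block 4466, 1469 and 1955 genes were called. Count-based tests were not run, since whole reads were not recovered. Depth is unknown, which limits statements on weakly expressed genes.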

Other observations

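Lists not described above include p53 targets, of which 9 were higher and 4 lower of 26 tested (4 and 1 without GAP-2/3 replicate A). Mdm2, the ligase that degrades p53, was at 65.7 and 49.2 FPKM with GAP-scr and 91.8 and 92.6 FPKM with GAP-2/3 (log2 difference 0.69, limma adjusted p = 0.00236). Trp53inp1, a p53-induced autophagy protein, was at 36.0 and 20.7 FPKM with GAP-scr and 69.2 and 60.5 FPKM with GAP-2/3 (log2 difference 1.21, limma adjusted p = 0.00096). Gadd45a, a growth arrest gene, went the other way, at 154 and 139 FPKM with GAP-scr and 97.9 and 83.9 FPKM with GAP-2/3 (log2 difference -0.68, limma adjusted p = 0.00126). Cdkn1a and Zmat3 were called lower too, with differences in mean FPKM of -222 and -4.33. Both of these calls were lost in some alternative fits. The shares of the p53 list, 34.6% higher and 15.4% lower, were near the 28.0% and 11.3% over all genes. The list of ER chaperones and unfolded protein response had 9 higher and 2 lower of 24, but 5 and 4 with libraries scaled to one median and 4 and 1 without GAP-2/3 replicate A. Hsp90b1, the chaperone GRP94, was at 304 and 274 FPKM with GAP-scr and 449 and 414 FPKM with GAP-2/3 (log2 difference 0.58, limma adjusted p = 0.00263). The ribosome biogenesis list had 6 higher and 10 lower of 32, and 0 and 1 without GAP-2/3 replicate A. The lysosome and autophagy list had 12 higher and 4 lower of 35 (34.3% and 11.4%, near the shares over all genes), which became 8 and 9 under quantile normalization.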
